A study of Saccharomyces cerevisiae with 21 samples.

Results

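Budding yeast takes up iron through a small set of cell-surface genes, and 10 of them, SIT1, ARN1, ARN2, ENB1, FIT1, FIT2, FIT3, FET3, FTR1 and FRE1, are described here across 7 strains of Saccharomyces cerevisiae. The members were chosen by name, as the siderophore carriers, their cell wall helpers and the main parts of reductive iron uptake. Earlier results of these data were known at that point. All 10 were found among the 5823 genes of the count table. RNA was sequenced from 21 libraries, 3 for each strain. Beside a wild type (WT) there were 3 strains with changes in SPT6, namely spt6-R and spt6-KK with 1 change each and spt6-R,KK with both. The other 3 carried changes in RPB1 (RPO21), the gene of the largest RNA polymerase II subunit: rpb1-TPY and rpb1-FSP with 1 each, and rpb1-TPY,FSP with both. Every strain was in log phase in a rich medium at 30 °C, and no group was starved of iron or given an iron chelator. The labels tie each genotype to 1 strain, so the mutation and other differences between strains cannot be told apart. They give neither the residues behind the allele names nor whether a strain's 3 libraries had separate cultures as their source, so the spread behind each p-value may be technical. Spt6 is a histone chaperone that travels with RNA polymerase II and binds the linker of Rpb1 through its tandem SH2 domain, and the study compared mutants of both sides of that contact.

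Yeast imports iron by a reductive and a non-reductive route. In the reductive route surface reductases such as Fre1 turn ferric into ferrous iron, which the multicopper oxidase Fet3 and the permease Ftr1 then carry in together. In the other route carriers of the Arn family import iron bound to siderophores, small chelators that other microbes secrete and that this yeast does not make itself, and the mannoproteins Fit1, Fit2 and Fit3 hold siderophore iron in the cell wall. When iron is short, the factor Aft1, with its relative Aft2, binds promoters at sites with the core TGCACCC and switches these genes on.

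The Aft core TGCACCC, searched for on both strands in the 500 bases before each start codon, was found at 9 of the 10 genes. Over all 6000 promoters of that length the share with a match was 2.33%, and for the shorter GCACCC, which lies within it, 7.62%. The site nearest each start codon is shown, since it is what the 9 promoters have in common. Sequences are R64 (sacCer3) from RefSeq, 5′ to 3′ on the strand of the gene, with the core in capitals, which reads GGGTGCA where it lies on the other strand.
SIT1, chrV:27458-27485, plus strand: aacacatttgaGGGTGCAatctggttcg
ARN1, chrVIII:21215-21242, minus strand: atttatcaaaaTGCACCCataaaagcag
ARN2, chrVIII:10644-10671, minus strand: aatcagaaaatGGGTGCAgttcttagtt
ENB1, chrXV:21432-21459, minus strand: cggcttacaatTGCACCCctctgtggct
FIT1, chrIV:1505066-1505093, minus strand: gttctaggaaaGGGTGCAaaaaaatgaa
FIT2, chrXV:1059389-1059416, plus strand: cgaatctaactGGGTGCAgtataattag
FIT3, chrXV:1061223-1061250, minus strand: attctaggaaaGGGTGCAaaaaaatggg
FET3, chrXIII:388560-388587, plus strand: atcttcaaaagTGCACCCatttgcaggt
FTR1, chrV:461899-461926, minus strand: gcgtagatgaaTGCACCCgatttctaag
These matches lie between 131 bases (FIT2) and 447 bases (ARN2) before the start codon. The windows of FIT1 and FIT3 are equal at 25 of their 28 bases. FIT2 holds 3 further copies of the core, and ENB1, FIT1, FIT3 and FTR1 hold 1 more each. No match lay within this window at FRE1. A match is a description of the sequence and not evidence that a factor was bound.

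The genes are spread over 6 chromosomes, and 7 of them lie within 35000 bases of a chromosome end. In R64 coordinates SIT1 (YEL065W) spans chromosome V 27657 to 29543, ARN1 (YHL040C) VIII 19088 to 20971, ARN2 (YHL047C) VIII 8351 to 10213 and ENB1 (YOL158C) XV 19491 to 21311. FIT1 (YDR534C) spans IV 1503314 to 1504900. FIT2 (YOR382W, XV 1059531 to 1059992) and FIT3 (YOR383C, XV 1060441 to 1061055) face each other tail to tail with 448 bases between them. The reductive genes FET3 (YMR058W, XIII 388822 to 390732), FTR1 (YER145C, V 460526 to 461740) and FRE1 (YLR214W, XII 568567 to 570627) lie 388822, 115135 and 507551 bases from the nearest end. No other gene shares a run of 50 bases with any of the 10, and the longest run shared by a pair of them is 27 bases, in FIT1 and FIT3.

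Full-gene counts summed to between 4860861 and 7803152 per library. The lowest and highest counts of a single gene in a single library were 13 and 120 for FIT1, 30 and 808 for FIT2, 82 and 2219 for SIT1, and 4778 and 17097 for FET3. Values of FIT1 are therefore the least precise of the 10. SPT6 transcript differed from WT by -1.03 ± 0.16 (log2 fold change ± SE) in spt6-R,KK, by -0.89 ± 0.16 in spt6-R and by -0.45 ± 0.16 in rpb1-TPY,FSP, which all passed, and by -0.48 ± 0.16 in spt6-KK (adjusted p = 0.0513). RPO21 differed by -0.04 in spt6-R,KK and -0.08 in rpb1-TPY,FSP, neither of which passed the test. All 6 measured markers of a-type haploid cells were well expressed, with a sum of 1370 to 3100 CPM (counts scaled to library size) in every library, while the 3 measured markers of alpha cells summed to 20.4 to 87.7 CPM. The alpha markers summed to 64.4 to 87.7 CPM in the double mutants and 25.1 to 37.8 CPM in WT. They were also above WT in spt6-R (40.6 to 52.6 CPM) and rpb1-FSP (39.8 to 52.3 CPM), while spt6-KK and rpb1-TPY overlapped WT. The a markers summed to 2140 to 3100 CPM in the double mutants and 1640 to 1830 CPM in WT. The part of either set in any difference between strains was not tested.

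In WT the oxidase and permease of the reductive route led, and FIT1 was lowest. As CPM per kilobase of gene (RPKM, mean ± SD, n = 3), FET3 stood at 670 ± 93.4 and its partner FTR1 at 372 ± 11.04. FIT3 followed at 109.9 ± 19.8 RPKM. The reductase FRE1 was at 49.2 ± 7.82 RPKM, and the enterobactin carrier ENB1 and the ferrichrome carrier ARN1 were at 42.2 ± 8.39 and 34.7 ± 6.80 RPKM. Lowest were ARN2 at 19.3 ± 1.05, FIT2 at 18.7 ± 3.40, SIT1 at 11.6 ± 1.63 and FIT1 at 3.53 ± 0.96 RPKM. Some neighbours in this order, such as ARN2 and FIT2, differed by less than their spread.

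In both double mutants the siderophore carriers SIT1, ARN2 and ARN1 and the mannoproteins FIT2 and FIT3 were higher than in WT, by 2.09-fold to 7.58-fold, whereas ENB1, FET3, FTR1 and FRE1 did not pass the test. FIT1 passed in rpb1-TPY,FSP alone. In spt6-R,KK 5 of the 10 genes rose and none fell, where 36.7% of all 5618 genes tested were called and 19.3% rose. In rpb1-TPY,FSP 6 of the 10 rose and none fell, where 35.2% of all genes were called and 18.8% rose. The median log2 fold change of the 10 was 1.03 in spt6-R,KK and 1.15 in rpb1-TPY,FSP, beside 0.02 and 0.06 over all genes. Both comparisons use the same 3 WT libraries. In bulk RNA, more cells with a transcript and more transcript per cell cannot be told apart.

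**Figure D1:**
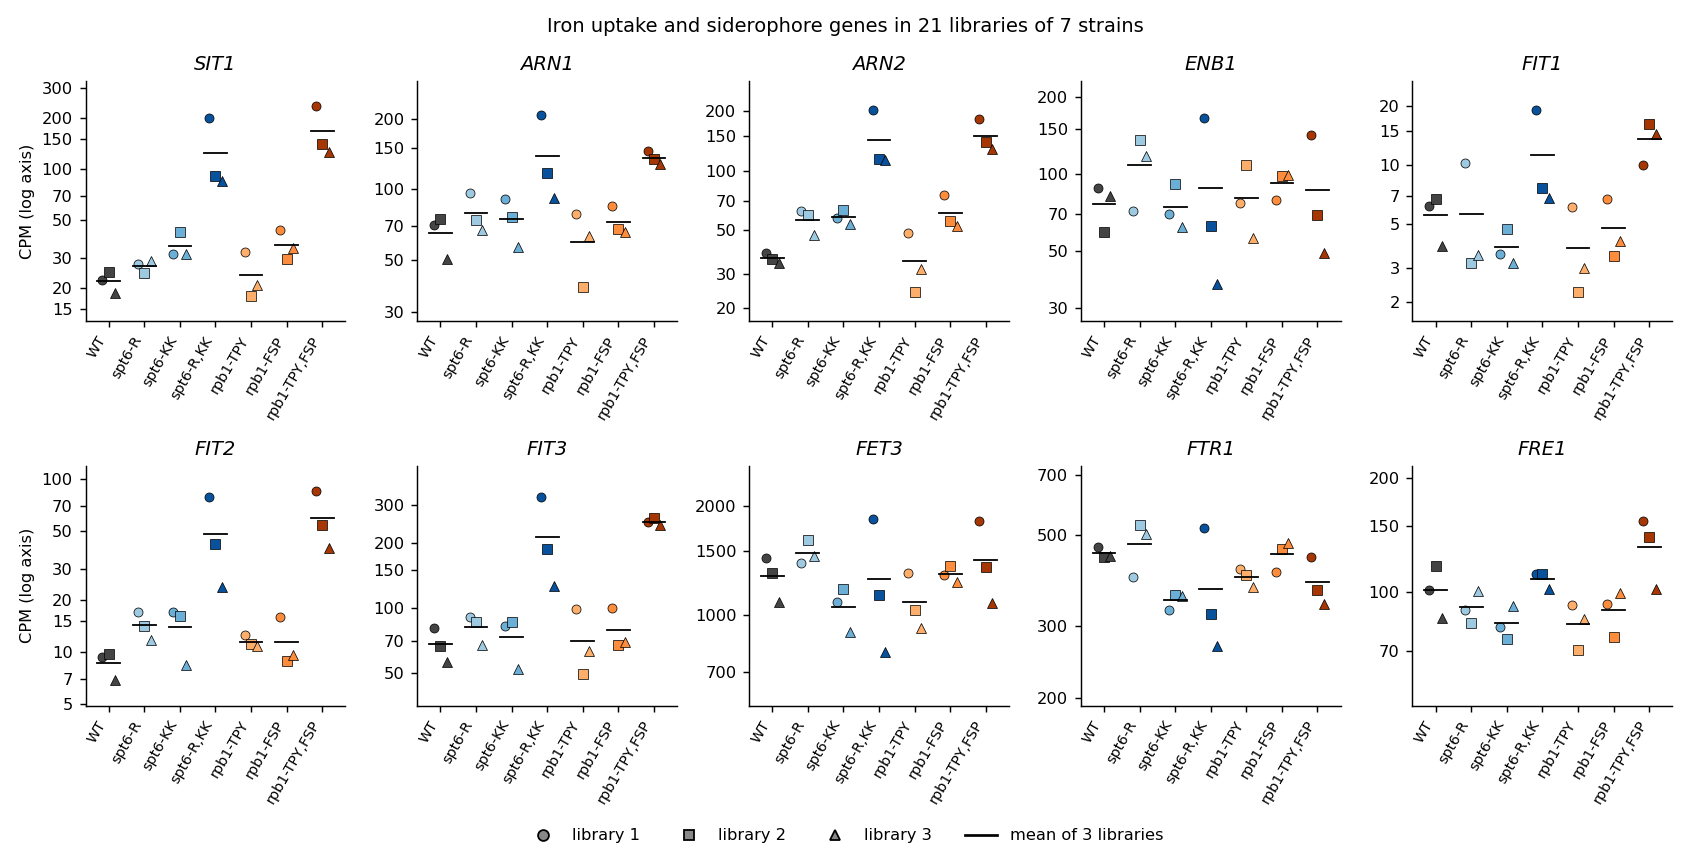
CPM (log axis) of each of the 10 genes in the 21 libraries, grouped by strain on the horizontal axis, with 1 symbol per library number and a line at the mean of 3 libraries. For SIT1, ARN2, FIT2 and FIT3 every double-mutant library sits above every other library, while those of ENB1, FET3 and FTR1 overlap.

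SIT1, the carrier of ferrioxamine siderophores, changed most. Its CPM was 22.3, 24.8 and 18.7 in WT, 199, 91.5 and 85.0 in spt6-R,KK, and 235, 139.8 and 126 in rpb1-TPY,FSP. All 12 single-mutant libraries lay between 17.9 and 43.8 CPM. Every library of both double mutants was therefore above every other library, and the double mutants overlapped each other. The log2 fold change against WT was 2.51 ± 0.31 in spt6-R,KK (5.68-fold, adjusted p = 2.76e-06) and 2.92 ± 0.31 in rpb1-TPY,FSP (7.58-fold, adjusted p = 4.77e-07).

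ARN2, the carrier of triacetylfusarinine C, followed the same order of strains at its upper end. It stood at 38.0, 35.8 and 34.2 CPM in WT, 203, 114 and 114 in spt6-R,KK, and 183, 140.0 and 128 in rpb1-TPY,FSP. Libraries of the single mutants lay between 24.2 and 75.2 CPM, so again the double mutants were above all of them. It rose by a log2 fold change of 1.99 ± 0.24 in spt6-R,KK (adjusted p = 2.12e-06) and 2.06 ± 0.24 in rpb1-TPY,FSP (adjusted p = 1.44e-06).

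ARN1, the ferrichrome carrier, rose about as much in each double mutant but less than SIT1 and ARN2. Its CPM was 70.4, 74.9 and 50.8 in WT, 207, 117 and 92.3 in spt6-R,KK, and 146, 135 and 129 in rpb1-TPY,FSP. The groups did not overlap, although the lowest spt6-R,KK library lay under the highest single-mutant library, at 96.5 CPM. The log2 fold change was 1.08 ± 0.26 (adjusted p = 0.00322) and 1.06 ± 0.26 (adjusted p = 0.00394). The first of these was 0.68 (adjusted p = 0.033) with spt6-R,KK library 1 left out.

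ENB1, the enterobactin carrier, is the family member that did not pass the test in any strain. It stood at 88.4, 59.5 and 82.5 CPM in WT, 165, 62.8 and 37.4 in spt6-R,KK, and 142, 69.5 and 49.4 in rpb1-TPY,FSP. In both double mutants library 1 lay above every WT library and library 3 below, so the groups overlapped. Log2 fold changes were 0.20 ± 0.41 (95% interval -0.66 to 1.06, adjusted p = 0.728) and 0.19 ± 0.41 (-0.67 to 1.04, adjusted p = 0.753). Without library 1 of each double mutant they were -0.61 and -0.36, neither past the threshold.

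Among the cell wall mannoproteins FIT2 rose most. FIT2 was at 9.33, 9.73 and 6.83 CPM in WT, 78.4, 42.3 and 23.7 in spt6-R,KK, and 85.7, 54.3 and 39.9 in rpb1-TPY,FSP. Single-mutant libraries reached 17.04 CPM at most, below every double-mutant library. Its log2 fold change was 2.46 ± 0.38 in spt6-R,KK (5.49-fold, adjusted p = 4.19e-05) and 2.78 ± 0.38 in rpb1-TPY,FSP (6.88-fold, adjusted p = 9.66e-06).

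FIT3, the neighbour of FIT2, rose less, from a higher WT level. It stood at 80.3, 66.4 and 56.0 CPM in WT, 327, 188 and 126 in spt6-R,KK, and 249.5, 262 and 243 in rpb1-TPY,FSP. The rpb1-TPY,FSP libraries lay close together, those of spt6-R,KK far apart, and all 6 were above every single-mutant library. Log2 fold changes were 1.66 ± 0.29 (adjusted p = 0.000153) and 1.89 ± 0.29 (adjusted p = 3.88e-05).

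FIT1, the scarcest of the 10, passed the test in 1 double mutant. Its CPM was 6.17, 6.75 and 3.87 in WT, 19.2, 7.66 and 6.82 in spt6-R,KK, and 10.1, 16.3 and 14.4 in rpb1-TPY,FSP. All double-mutant libraries were above the WT libraries, in spt6-R,KK by a narrow margin for libraries 2 and 3. The log2 fold change was 0.98 ± 0.44 in spt6-R,KK (adjusted p = 0.0907) and 1.24 ± 0.44 in rpb1-TPY,FSP (adjusted p = 0.0324). The call in rpb1-TPY,FSP was lost without WT library 1, 2 or 3 (adjusted p = 0.0641, 0.0544 and 0.112) and without rpb1-TPY,FSP library 2 or 3 (0.104 and 0.079). In spt6-R,KK the gene passed without library 3 (1.24, adjusted p = 0.0437) and stood at 0.35 without library 1.

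The reductive genes did not pass the test in either double mutant. FET3, the iron oxidase, was at 1441, 1310 and 1088 CPM in WT, 1843, 1140 and 792 in spt6-R,KK, and 1813, 1356 and 1079 in rpb1-TPY,FSP. FTR1, its permease partner, was at 467, 443 and 446 CPM in WT, 519, 320.4 and 268 in spt6-R,KK, and 443, 366 and 340.2 in rpb1-TPY,FSP. For both genes the spt6-R,KK libraries lay on both sides of WT, and the rpb1-TPY,FSP libraries of FTR1 were all below WT, if barely. The log2 fold changes of FET3 were -0.02 ± 0.23 (95% interval -0.49 to 0.44, adjusted p = 0.948) and 0.15 ± 0.23 (-0.32 to 0.62, adjusted p = 0.643). Those of FTR1 were -0.29 ± 0.17 (-0.65 to 0.07, adjusted p = 0.192) and -0.24 ± 0.17 (-0.60 to 0.12, adjusted p = 0.294). FTR1 passed as lower in spt6-R,KK when its library 1 was left out (-0.62, adjusted p = 0.00154).

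FRE1, the ferric and cupric reductase with no Aft core in its window, is also known as a target of the copper-sensing factor Mac1. It stood at 101, 117 and 85.2 CPM in WT, 112, 112 and 102 in spt6-R,KK, and 154, 139.5 and 102 in rpb1-TPY,FSP. The groups overlapped in both comparisons. Log2 fold changes were 0.10 ± 0.16 (adjusted p = 0.661) and 0.38 ± 0.15 (adjusted p = 0.0626). The second passed without WT library 2 (0.50, adjusted p = 0.0384) or rpb1-TPY,FSP library 3 (0.51, adjusted p = 0.0174).

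The non-overlap of libraries gave a similar count. In spt6-R,KK 6 of the 10 genes had all 3 libraries above all 3 WT libraries, a condition met by 23.4% of all genes. In rpb1-TPY,FSP 6 genes met it, beside 26.2% of all genes, and FTR1 alone had all 3 libraries lower, beside 22.1%.

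**Figure D2:**
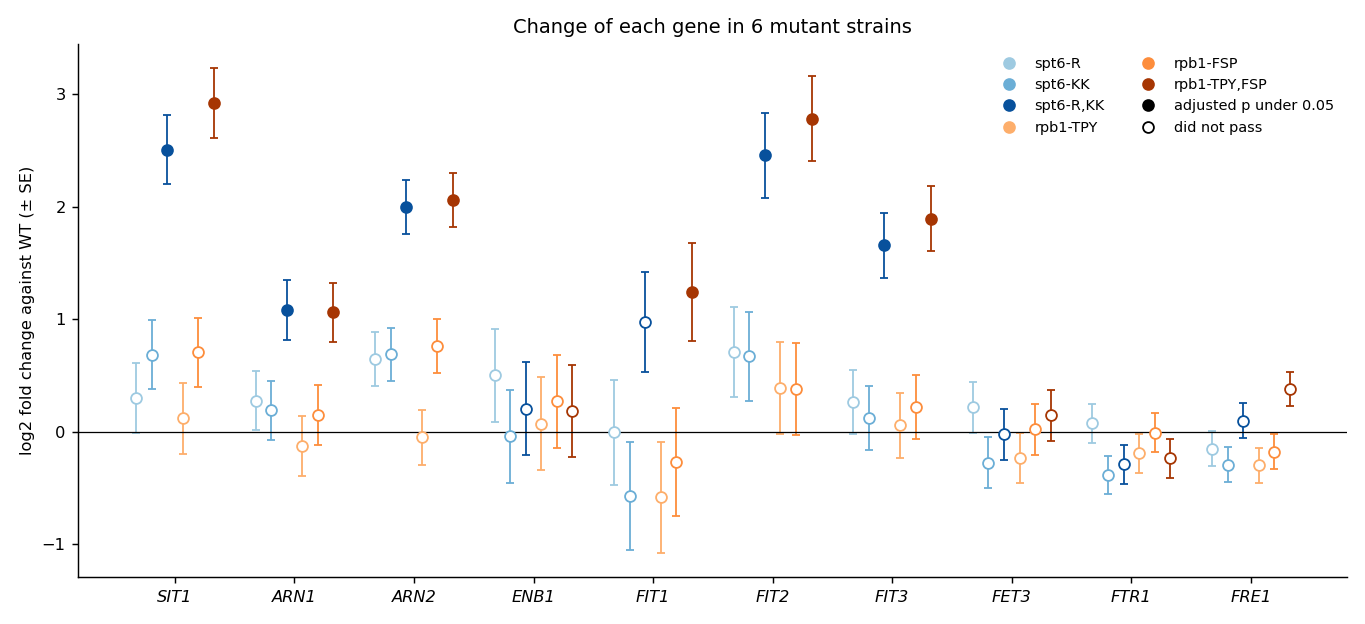
Log2 fold change against WT (vertical axis, with its standard error) of each gene in the 6 mutant strains, filled where the adjusted p was under 0.05. Filled points occur in the double mutants only, 5 in spt6-R,KK and 6 in rpb1-TPY,FSP, and the largest are SIT1 at 2.92 and FIT2 at 2.78 in rpb1-TPY,FSP.

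None of the 10 genes passed in a single mutant by edgeR's quasi-likelihood test in the fit of all 21 libraries. The share of all genes called was 8.49% in spt6-R, 13.3% in spt6-KK, 0.0534% in rpb1-TPY and 2.35% in rpb1-FSP. At an unadjusted p under 0.05 the counts among the 10 were 1, 3, 0 and 2, and DESeq2 called 0, 1, 0 and 1. The DESeq2 calls were ARN2 in spt6-KK and in rpb1-FSP. In edgeR fits of only the strains compared, ARN2 passed in spt6-R, spt6-KK and rpb1-FSP (adjusted p = 0.0102, 0.00763 and 0.00949). SIT1 passed there in spt6-KK and rpb1-FSP (0.0271 and 0.0249), FIT2 in spt6-R (0.0414) and FTR1, as lower, in spt6-KK (0.0139). Shares of all genes at an unadjusted p under 0.05, by DESeq2 or in those narrower fits are not given here. Whether these calls exceed such shares therefore cannot be read from them.

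ARN2 and SIT1 came nearest to the threshold in the single mutants. ARN2 was at 62.2, 59.8 and 47.3 CPM in spt6-R, 57.3, 63.3 and 53.7 in spt6-KK, and 75.2, 55.7 and 52.6 in rpb1-FSP, all 9 libraries above the highest WT library. Its log2 fold changes were 0.64 ± 0.24 (adjusted p = 0.0944), 0.69 ± 0.24 (0.0586) and 0.76 ± 0.24 (0.0889). In rpb1-TPY ARN2 was at 48.3, 24.2 and 31.8 CPM, around the WT libraries, with a log2 fold change of -0.05 ± 0.24.

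SIT1 was at 31.7, 42.8 and 31.8 CPM in spt6-KK and at 43.8, 29.6 and 34.5 in rpb1-FSP. Both strains were above all WT libraries, with log2 fold changes of 0.69 ± 0.30 (adjusted p = 0.135) and 0.70 ± 0.31 (0.251). In spt6-R and rpb1-TPY its libraries overlapped those of WT, with log2 fold changes of 0.30 ± 0.31 and 0.12 ± 0.31. FIT2 lay above WT in all libraries of spt6-R, at 16.99, 14.2 and 11.8 CPM (log2 fold change 0.71 ± 0.40, adjusted p = 0.279), and of rpb1-TPY, at 12.5, 11.04 and 10.8 CPM (0.39 ± 0.41).

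FTR1 lay below WT in all libraries of spt6-KK, at 328, 356 and 354 CPM (log2 fold change -0.39 ± 0.17, adjusted p = 0.137), and of rpb1-TPY, at 414, 399 and 373 CPM (-0.19 ± 0.17). In all, 2 genes had every library above WT in spt6-R, 2 in spt6-KK, 1 in rpb1-TPY and 2 in rpb1-FSP, a condition met by 17.4%, 18.9%, 3.24% and 13% of all genes. FTR1 was the 1 gene with every library below WT in spt6-KK and in rpb1-TPY, where 17.4% and 2.51% of all genes were. The rest of the family overlapped WT in each single mutant.

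Ranked by mean CPM, both double mutants held the 2 highest places for SIT1, ARN1, ARN2, FIT1, FIT2, FIT3 and FRE1. For SIT1, ARN2, FIT2 and FIT3 neither of them overlapped any of the other 5 strains, whereas for ARN1 the lowest spt6-R,KK library lay within the range of spt6-R. Further down the SIT1 order WT, rpb1-TPY and spt6-R overlapped their neighbours, as did spt6-KK and rpb1-FSP. For ENB1, FET3 and FTR1 each strain overlapped its neighbour in rank, and spt6-R, with means of 109, 1487 and 476 CPM, ranked highest in all 3.

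Strains with both mutations of a protein had more transcript of the same siderophore carriers and mannoproteins than strains with 1. From spt6-R to spt6-R,KK 5 genes rose, beside 14.1% of all genes called and 6.82% rising, with log2 fold changes of 2.20 ± 0.30 for SIT1, 1.75 ± 0.36 for FIT2, 1.39 ± 0.29 for FIT3, 1.35 ± 0.23 for ARN2 and 0.80 ± 0.26 for ARN1. ARN1 (adjusted p = 0.0448) no longer passed when spt6-R,KK library 1 was left out (0.39, adjusted p = 0.29), nor without library 2 of that strain (adjusted p = 0.0523) or libraries 2 or 3 of spt6-R (0.127 and 0.162). From spt6-KK to spt6-R,KK 6 genes rose, beside 26.6% called and 12.8% rising. These were SIT1 at 1.82 ± 0.29, FIT2 at 1.79 ± 0.35, FIT1 at 1.55 ± 0.45, FIT3 at 1.54 ± 0.29, ARN2 at 1.31 ± 0.23 and ARN1 at 0.89 ± 0.26. With spt6-R,KK library 1 left out, FIT1 (0.92, adjusted p = 0.153) and ARN1 (0.49, adjusted p = 0.151) no longer passed, nor did they without spt6-KK library 3 (adjusted p = 0.0658 and 0.089).

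In the RPB1 series the reductase FRE1 was also among the called genes. From rpb1-TPY to rpb1-TPY,FSP 7 genes rose, beside 34.0% of all genes called and 17.6% rising, led by SIT1 at 2.81 ± 0.31, FIT2 at 2.39 ± 0.36 and ARN2 at 2.11 ± 0.24. FIT3, FIT1 and ARN1 rose by 1.84 ± 0.29, 1.82 ± 0.46 and 1.19 ± 0.26, and FRE1 by 0.68 ± 0.16 (adjusted p = 0.00216). From rpb1-FSP to rpb1-TPY,FSP the same 7 genes rose, beside 16.6% called and 8.33% rising, with SIT1 at 2.22 ± 0.30, FIT2 at 2.40 ± 0.37, FIT1 at 1.51 ± 0.44 and FRE1 at 0.56 ± 0.15 (adjusted p = 0.018). That count was 4 without rpb1-FSP library 2 or rpb1-TPY,FSP library 2, where FIT1, ARN1 and FRE1 no longer passed. ENB1, FET3 and FTR1 did not pass in any of these 4 steps with all libraries in the fit. Without the libraries numbered 1 of the double mutants, all 3 passed as lower in spt6-R,KK than in spt6-R (-1.12, -0.63 and -0.70, adjusted p = 0.0102, 0.0144 and 0.000495), and FTR1 as lower in rpb1-TPY,FSP than in rpb1-FSP (-0.35, adjusted p = 0.0481).

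Each double mutant was then set against the sum of its single changes on the log2 scale. For TPY and FSP, 5 genes lay above the sum, beside 3.19% of all genes called and 1.32% called above it. The excess was 2.10 ± 0.43 for SIT1 (4.29-fold, adjusted p = 0.0096), 2.01 ± 0.55 for FIT2 (adjusted p = 0.0473), 1.62 ± 0.40 for FIT3 (0.0306), 1.35 ± 0.33 for ARN2 (0.0282) and 0.86 ± 0.22 for FRE1 (0.0362). SIT1 alone kept its call in every fit that left out 1 library. Leaving out WT library 1 or 2, rpb1-TPY library 2 or 3, or rpb1-FSP library 2 left 1 call. Leaving out rpb1-FSP library 3, or rpb1-TPY,FSP library 1 or 2, left 2.

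For R and KK none of the 10 passed, beside 0.356% of all genes called, and 4 had an unadjusted p under 0.05 by edgeR, while DESeq2 called 1. SIT1 exceeded the sum by 1.52 ± 0.42 (95% interval 0.64 to 2.40, adjusted p = 0.0896) and FIT3 by 1.27 ± 0.40 (adjusted p = 0.137). DESeq2's call was SIT1, at 1.54 (adjusted p = 0.0222). Shares of all genes at an unadjusted p under 0.05 or by DESeq2 are not given for this comparison. Whether the excess differed between the SPT6 and RPB1 mutants was not tested.

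Between the double mutants none of the 10 genes differed by edgeR's test, with none at an unadjusted p under 0.05 and none called by DESeq2, beside 0.0356% of all genes called. Log2 fold changes of spt6-R,KK over rpb1-TPY,FSP ran from -0.42 ± 0.28 for SIT1 (95% interval -0.99 to 0.16) to 0.02 ± 0.26 for ARN1 (-0.52 to 0.56). The intervals of FIT1 (-1.11 to 0.58) and ENB1 (-0.83 to 0.87) were the widest, so differences of that size would have been missed for them. With 1 library left out in turn SIT1 ran from -0.90 to -0.08. Without both libraries 1, FIT1 stood at -1.09 and ARN1 at -0.34 (adjusted p = 0.998 for both).

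The genes often moved together between libraries of 1 strain. In spt6-R,KK all 10 were highest in library 1 and all 10 lowest in library 3, and in rpb1-TPY,FSP 8 were highest in library 1 and 9 lowest in library 3. No other strain had both counts that high, though some had 1 of them. In rpb1-TPY 9 were highest in library 1 and 4 lowest in library 3. These 2 counts were 5 and 8 in WT, and 2 and 7 in spt6-KK. They were 5 and 4 in spt6-R, and 6 and 3 in rpb1-FSP. Shares of all genes highest in library 1 or lowest in library 3 are not given here. Whether these counts are particular to the 10 therefore cannot be read from them. With both libraries 1 left out, SIT1 rose by 2.00 ± 0.20 in spt6-R,KK and 2.59 ± 0.20 in rpb1-TPY,FSP, and FIT2 by 1.91 ± 0.30 and 2.43 ± 0.29. ARN2 then rose by 1.66 and 1.90, FIT3 by 1.21 and 1.90, and ARN1 by 0.67 (adjusted p = 0.0337) and 1.01. FIT1 stood at 0.34 (adjusted p = 0.563) in spt6-R,KK and rose by 1.43 (adjusted p = 0.00766) in rpb1-TPY,FSP. FTR1 then passed as lower in both, at -0.62 (adjusted p = 0.000522) and -0.35 (adjusted p = 0.0279), which gives 5 genes up and 1 down in spt6-R,KK and 6 up and 1 down in rpb1-TPY,FSP, beside 37.8% and 37.4% of all genes called in that fit. The cause of the differences between libraries was not tested.

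Across the 21 libraries FET3, FTR1 and ENB1 went together, and FRE1 went with the siderophore genes other than ENB1. Pearson r of log2 CPM was 0.964 between SIT1 and ARN2, 0.959 between FIT2 and FIT3, and 0.948 between ARN1 and FIT3. ENB1 went with FTR1 (r = 0.813) and FET3 (0.794), and hardly with SIT1 (0.06), while SIT1 and FTR1 stood at -0.211. The reductase FRE1 stood at 0.726 with SIT1 and 0.699 with FIT3, but at 0.398 with FET3, 0.0322 with FTR1 and 0.0134 with ENB1. Around the strain means, however, SIT1 and FTR1 deviated together (r = 0.659), as did SIT1 and ENB1 (0.598) and ENB1 and FTR1 (0.909). These values describe points that share libraries, strains and scaling, and carry no test.

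**Figure D3:**
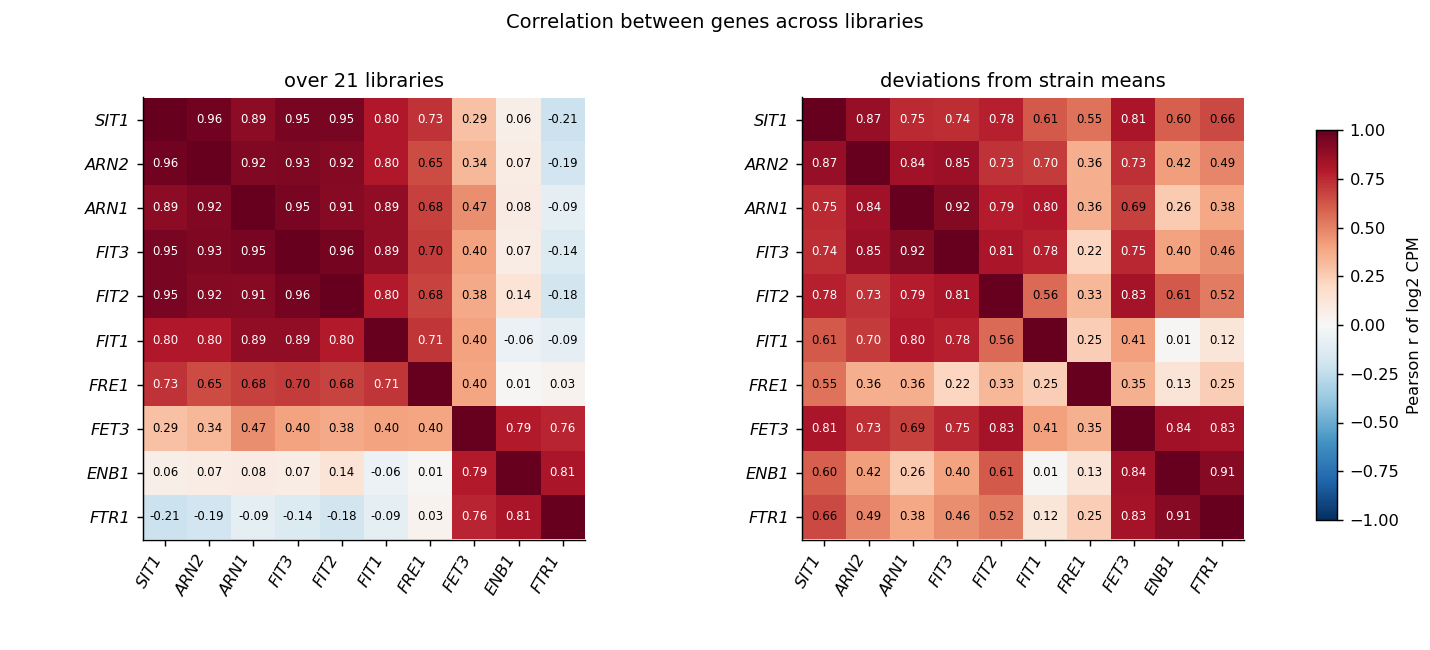
Pearson r of log2 CPM between each pair of genes, over the 21 libraries (left) and for deviations from the strain means (right), with red for positive and blue for negative values. In the left panel SIT1, ARN2, ARN1, FIT3 and FIT2 form a block while FET3, ENB1 and FTR1 form another, and in the right panel SIT1 and FTR1 stand at 0.659 against -0.211 on the left.

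Outside the 10, the genes whose log2 CPM went most closely with the mean standardised profile of the 10 were YDR249C (r = 0.926), the palmitoyltransferase gene AKR1 (0.923), LEU4 of leucine synthesis (0.910), ARO8, an aromatic aminotransferase gene (0.899), and ISU1, the scaffold for iron-sulfur cluster assembly (0.893), over 21 libraries. Their log2 fold changes in spt6-R,KK and rpb1-TPY,FSP were 0.43 and 0.48 for YDR249C, 0.36 and 0.34 for AKR1, 1.49 and 1.20 for LEU4, 0.65 and 0.56 for ARO8, and 1.09 and 0.93 for ISU1. ENB1 and FTR1 themselves had r of 0.405 and 0.232 with that mean profile.

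FIT3 also differed between strains in where its counts came from. The authors deposited a further table of sense reads over the middle 70% of each gene, and its FIT3 counts were 66.5%, 70% and 65.4% of the full-gene counts in WT. They were 59.6% to 73.7% in the single mutants, 48.1%, 56.2% and 58.8% in spt6-R,KK, and 48.9%, 47.8% and 52.0% in rpb1-TPY,FSP. Each double-mutant library was thus below each other library. FIT2, on the other strand next door, held 90.0% to 100% throughout, and ARN2 stood higher in the double mutants, at 80.6% to 84.7%, than in WT, at 73.7% to 78.3%, while single mutants reached into both ranges, at 72.1% to 83.6%. On mid-gene counts FIT3 rose by 1.29 and 1.44 on the log2 scale, compared with 1.66 and 1.89 on full-gene counts. Whether the full-gene table was counted by strand is not given in the sources used here, and the cause of the shift was not tested. For FIT1 the share ran from 83.3% to 139%, so the mid-gene table is not a subset of the full-gene table and these shares are descriptive.

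**Figure D4:**
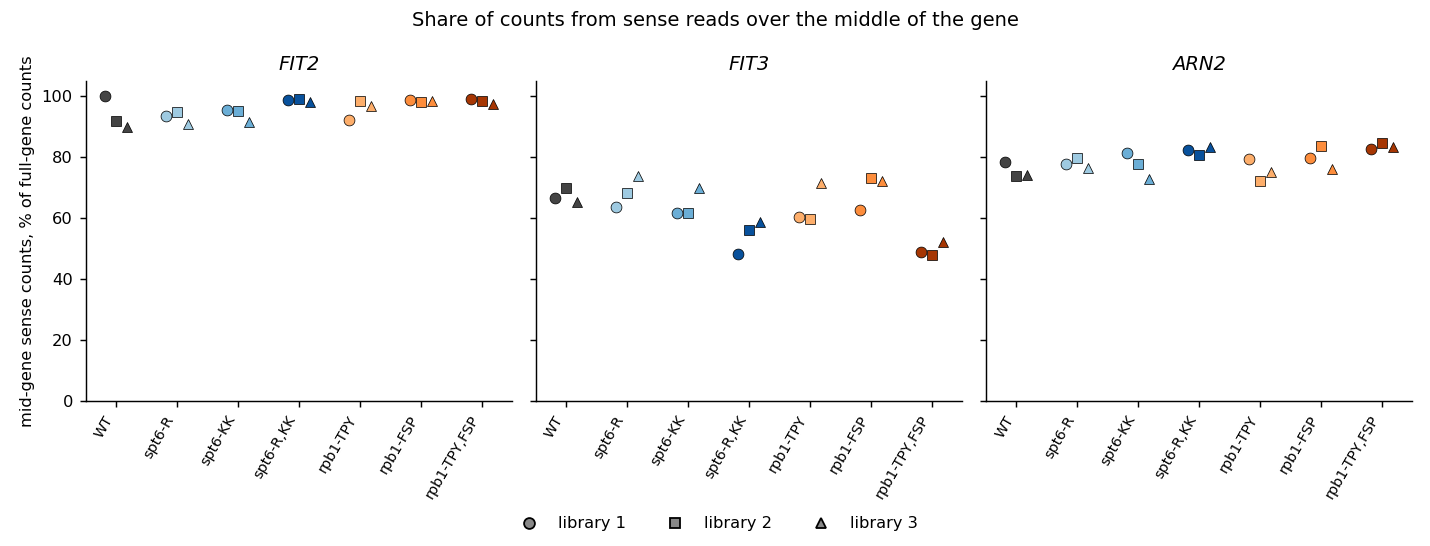
Mid-gene sense counts as a percentage of full-gene counts (vertical axis) for FIT2, FIT3 and ARN2 in each library, by strain. FIT3 lies at 47.8% to 58.8% in the double mutants and at 59.6% to 73.7% elsewhere, while FIT2 stays at 90.0% to 100%.

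Other genes that Aft factors are known to control were counted in the same way. This list, and those of regulators and of iron, copper and zinc genes below, were drawn up with earlier results known and carry no test. Of 19 such genes, 11 rose and none fell in spt6-R,KK (median log2 fold change 0.60), and 12 rose and none fell in rpb1-TPY,FSP (median 0.55), beside 19.3% and 18.8% of all genes rising and medians over all genes of 0.02 and 0.06. With 1 library left out in turn, the number called ran from 9 to 14 in spt6-R,KK and from 9 to 11 in rpb1-TPY,FSP. Shares of all genes in those fits are not given here. Among the 19, FRE5, a putative reductase gene beside FIT3, rose by 2.69 ± 0.45 and 2.92 ± 0.44. It was scarce, with a mean of 1.32 CPM and a lowest library of 0.471 CPM in WT, so its fold changes are imprecise. LSO1, a small gene induced by low iron, rose by 2.18 ± 0.36 and 2.66 ± 0.35. VHT1, the biotin carrier, rose by 1.82 and 1.76, and TIS11 (CTH2), whose protein promotes decay of mRNAs of iron-using proteins, by 1.57 ± 0.48 and 2.31 ± 0.47. The siderophore reductase gene FRE3 rose by 0.93 and 0.86, the reductase gene FRE2 by 0.73 and 0.74, and the vacuolar oxidase gene FET5 by 0.64 and 0.54. FTH1, the vacuolar partner of FET5, did not pass (0.29 and 0.13), nor did the low-affinity carrier FET4 (0.31 and 0.26) or SMF3 (0.01 and -0.04). ATX1 lay below WT without passing (-0.91 and -0.51), and FRE4 did not pass either (-0.42 and 0.12). In the single mutants HMX1, the haem oxygenase gene, rose in spt6-R (0.65 ± 0.18, adjusted p = 0.0291) and LSO1 in spt6-KK (1.35 ± 0.38, adjusted p = 0.0239), each 1 of the 19 (5.26%) where 4.02% and 6.35% of all genes rose. The HMX1 call was lost without any 1 of the WT libraries or without spt6-R library 2 or 3, and the LSO1 call without WT or spt6-KK library 2 or 3 and on mid-gene counts. None of the 19 passed in rpb1-TPY or rpb1-FSP in the fit of all libraries, while edgeR's fit of only the strains compared called 4 in spt6-R, 3 in spt6-KK and 2 in rpb1-FSP. The share of all genes called in those narrower fits is not given here.

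**Figure D5:**
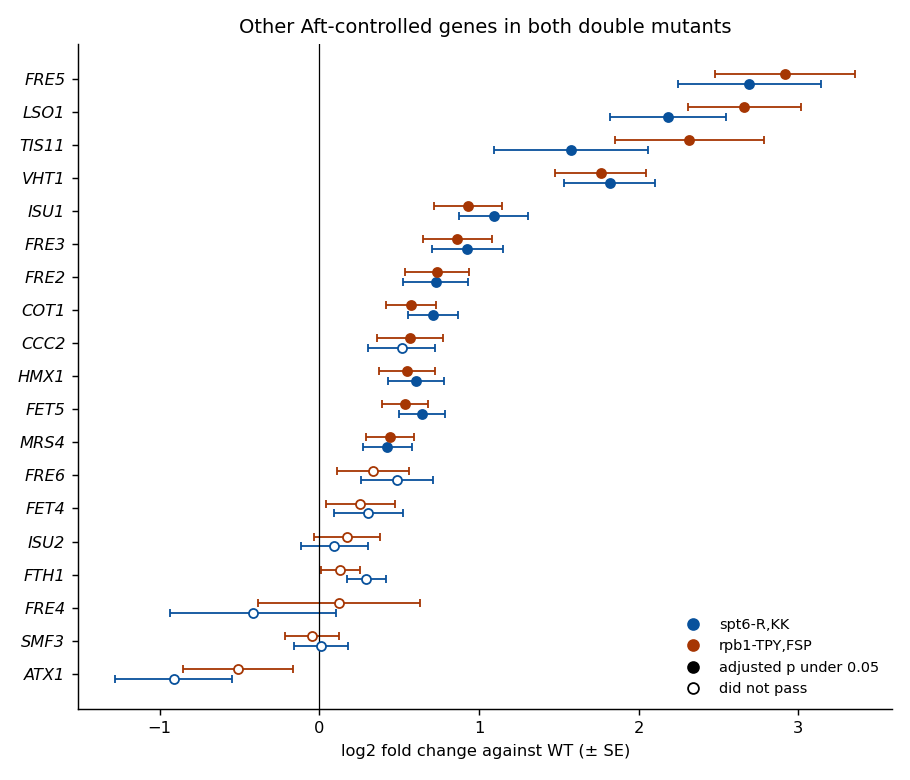
Log2 fold change against WT (horizontal axis, with its standard error) of 19 other Aft-controlled genes in spt6-R,KK and rpb1-TPY,FSP, filled where the adjusted p was under 0.05. FRE5, LSO1, TIS11 and VHT1 lie above 1.5 in both strains, and no filled point lies below 0.

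The transcripts of the regulators moved less. AFT1 differed from WT by -0.07 ± 0.18 (adjusted p = 0.796) in spt6-R,KK and by 0.02 ± 0.18 (adjusted p = 0.95) in rpb1-TPY,FSP. AFT2 stood at 0.27 ± 0.16 (adjusted p = 0.197) and rose by 0.52 ± 0.16 (adjusted p = 0.0168). GRX3, a glutaredoxin that takes part in shutting Aft1 off when iron is plentiful, fell by 0.54 ± 0.13 and 0.46 ± 0.13 on the log2 scale, and its relative GRX4 did not pass. Of the 12 regulators measured 1 rose and 1 fell in spt6-R,KK (8.33% rising, beside 19.3% of all genes), and 4 rose and 2 fell in rpb1-TPY,FSP (33.3%, beside 18.8%), among them CTH1 (0.68), YAP5 (0.65) and CCC1 (0.35), the last being the vacuolar iron importer, which rose in spt6-R,KK as well (0.51). NHP6B, which encodes a chromatin protein, fell by 0.59 in rpb1-TPY,FSP.

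Genes that use iron, copper or zinc are given beside 19.3% of all genes rising in spt6-R,KK and 18.8% in rpb1-TPY,FSP. Of 27 genes for haem and iron-sulfur cluster synthesis 4 rose and 3 fell in spt6-R,KK, and 4 rose and 2 fell in rpb1-TPY,FSP (14.8% rising in each), with HEM14 highest at 0.89 and 0.78. Of 16 mRNAs known as targets of Cth2, 6 rose and none fell in spt6-R,KK (37.5% rising), and 5 rose and 1 fell in rpb1-TPY,FSP (31.2%). BIO2, the biotin synthase gene, rose by 2.88 ± 0.19 and 2.78 ± 0.19. It also rose in spt6-R (2.09 ± 0.19), spt6-KK (2.52 ± 0.19) and rpb1-FSP (2.25 ± 0.19), but not in rpb1-TPY (0.18 ± 0.19). CCP1 rose by 1.07 and 0.98, and by 0.61, 0.55 and 0.72 in spt6-R, spt6-KK and rpb1-FSP. The succinate dehydrogenase genes SDH2 and SDH4 both rose by 1.27 in spt6-R,KK and by 1.01 and 1.07 in rpb1-TPY,FSP. SDH2 rose in spt6-R as well (0.76). ERG25 fell by 0.38 in rpb1-TPY,FSP. Of 12 copper and zinc genes 5 rose in each double mutant (41.7%), with the reductase gene FRE7 at 1.15 and 1.12, ADH4 at 1.02 and 0.95 and ZRT3 at 0.99 and 0.93, none fell in spt6-R,KK, and ZRT2 fell by 0.45 in rpb1-TPY,FSP. ADH4 rose in spt6-R, spt6-KK and rpb1-FSP as well (0.66, 0.455 and 0.46), and ZRT3 in spt6-R (0.47). MAC1, the copper-sensing activator, rose by 0.52 and 0.67, while the copper carrier CTR1 did not pass (-0.44 and -0.41).

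The promoter core and the place on the chromosome were also set against the change of all other genes. Among 122 tested genes that are none of the 10 but hold TGCACCC in their window, 35 rose and 14 fell in spt6-R,KK, a share of 28.7% rising, and 37 rose and 16 fell in rpb1-TPY,FSP, or 30.3%. Over all genes tested 19.3% and 18.8% rose. Median log2 fold changes were 0.19 and 0.21 for these genes, beside 0.02 and 0.06 over all. Among 325 tested genes within 35000 bases of a chromosome end, 145 rose and 20 fell in spt6-R,KK (44.6% rising, median 0.53), and 136 rose and 17 fell in rpb1-TPY,FSP (41.8%, median 0.50). Both lists were drawn up after values were seen and carry no test. Of the 10 genes, SIT1, ARN1, ARN2, FIT2 and FIT3 lie in that end zone and rose in both double mutants. ENB1, which lies there too and holds the core in 2 copies, did not pass. FIT1 also lies there with 2 copies, and passed in rpb1-TPY,FSP alone.

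Genes on either side of the 10 changed unevenly. Of 17 tested neighbours 6 rose and 1 fell in spt6-R,KK, and 7 rose and 2 fell in rpb1-TPY,FSP, beside 19.3% and 18.8% of all genes rising. The scarce FRE5 beside FIT3 is counted here and among the other Aft genes. COS8 beside ARN2 rose by 0.92 and 0.80, and YHL042W beside ARN1 rose in both, by 1.13 in rpb1-TPY,FSP. Next to FET3, which did not pass, AAC1, an ADP/ATP carrier gene on the other strand 577 bases away, rose by 2.05 and 2.13. The neighbours of SIT1, HPA3 and AVT2, did not pass (0.35 and 0.12, and 0.01 and -0.31), nor did IMA2 beside ENB1 (0.18 and 0.22).

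The authors made their own comparisons of each mutant with WT. In the authors' deposited table for full genes, 5 of the 10 genes were higher at an adjusted p under 0.05 in each double mutant and none in a single mutant. These were SIT1, ARN1, ARN2, FIT2 and FIT3. SIT1 in the authors' deposited table stood at a log2 fold change of 1.72 in spt6-R,KK and 2.00 in rpb1-TPY,FSP. The fit used here gave 2.51 and 2.92 for SIT1. Why the sizes differ was not tested, and they may not be the same measure. For mid-gene counts the authors' deposited table also had the same 5 genes higher in each double mutant, and ARN2 in rpb1-FSP (0.68, adjusted p = 0.0449). The share of all genes called in the authors' deposited tables is not given here, so these counts have no background beside them.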

How the data were processed

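Libraries of rRNA-depleted total RNA (21 in all) were stranded and read as 50-base pairs, per the labels' protocols. The submitters' processing notes name cutadapt 1.16, STAR 2.6.1b, featureCounts 1.6.3 of Subread, DESeq2 1.22.2 and the R64 (sacCer3) build. The deposited counts are raw reads per gene, for full genes (5823 genes, the table used here) and for sense reads in the central 70% (used as an alternative; the authors preferred it). The authors also deposited log2 fold changes and adjusted p-values of their own comparisons. How reads with several matches were counted is not given in the sources used here.

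Full-gene counts were compared with edgeR 4.0.16 (R 4.3.3; filterByExpr, 205 genes left out; TMM; quasi-likelihood test) in 1 fit of all libraries with strain as its only term. P-values were adjusted by the Benjamini-Hochberg method over 5618 genes, with 0.05 as threshold, for 13 comparisons. The common coefficient of variation between libraries was 0.154. The steps were tested on simulated data. CPM uses TMM-scaled library sizes, RPKM divides it by gene length, and errors are SE of contrasts or SD over 3 libraries.

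All 10 genes are named in every strain; per other list and double mutant up to 4 called genes with the largest changes are named, with measured Aft targets, regulators and neighbours. The members and lists were chosen with earlier results of these data known. Genes outside that rule, namely CTR1, ERG25, ZRT2 and, in spt6-R,KK, MAC1, were named after their values were seen, as was the neighbour IMA2. No pair of libraries was identical, and no value column was left unmapped.

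Libraries of different strains share replicate numbers. Same-numbered libraries deviated together, with every correlation over 0.1, in 7 of all 21 strain pairs but in none with WT, and in 2 of the 11 pairs compared, spt6-R,KK with spt6-KK (0.11 to 0.419) and with rpb1-TPY,FSP (0.366 to 0.431). Alternatives were other scaling (RLE), filters, mid-gene counts, DESeq2 1.42.0, a replicate block, a fit of only the strains compared, and leaving out libraries.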

Additional observations from a re-analysis of the deposited data

Results flagged for a closer look

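In the RPB1 mutants the change seen with FSP differed with and without TPY for 5 genes by the interaction term of edgeR's quasi-likelihood test. The excess over the sum of the single changes was 2.10 for SIT1, 2.01 for FIT2, 1.62 for FIT3, 1.35 for ARN2 and 0.86 for FRE1 on the log2 scale (n = 3 libraries a strain, adjusted p = 0.0096 to 0.0473). Over all genes tested, 3.19% were called for this term and 1.32% were called above the sum. With 1 library left out in turn, the count of these calls ran from 1 to 5, and SIT1 was called in each such fit. Shares of all genes in those fits are not given here. FIT2 did not pass with RLE scaling (adjusted p = 0.0507). Mid-gene counts gave 3 calls, without FIT2 (0.0552) and FIT3 (0.0538). FRE1 did not pass in a fit of only the strains compared (0.0801).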

How the results depend on the processing

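Counts of called genes in both double mutants against WT stayed within 1.5 times under every alternative run. In the single mutants, where none was called, the replicate block called 1 in spt6-R, 2 in spt6-KK and 1 in rpb1-FSP, and a fit of only the strains compared called 2, 3 and 2. DESeq2 called 1 in spt6-KK and 1 in rpb1-FSP. For R and KK together the block called 2, SIT1 (1.42) and FIT3 (1.21, adjusted p = 0.0406 for both), and DESeq2 1. For TPY and FSP together mid-gene counts gave 3 in place of 5, the block gave 7, and leaving out 1 library gave 1 to 5. From rpb1-FSP to rpb1-TPY,FSP leaving out 1 library gave 4 to 7 in place of 7. Shares of all genes called under these alternatives are not given here, so the counts cannot be set against them. The cause of these shifts was not tested.

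Directions turned only for genes that did not pass. With 1 library left out, ENB1 ran from -0.61 to 0.57 in spt6-R,KK and from -0.36 to 0.44 in rpb1-TPY,FSP, and without both libraries 1 it stood at -0.62 and -0.36. FET3 ran from -0.40 to 0.22 in spt6-R,KK and from -0.0663 to 0.28 in rpb1-TPY,FSP, where it stood at -0.0664 without both libraries 1. FRE1 ran from -0.0134 to 0.21 in spt6-R,KK.

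Against WT, 4 of 18 mutant libraries deviated most like the WT library of their own number, and same-number correlations ran from -0.398 to 0.173, so the replicate numbers were not taken as pairing there. In the pair of comparisons where they were, the block changed no call. FIT1, at 13 to 120 counts, limits what depth can show.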
